A study of Homo sapiens with 12 samples.

Results

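The comparison described here is that of monocyclohexyl phthalate (MCHP) with the solvent DMSO in M2-polarized macrophages, made from 6 of the 12 RNA sequencing libraries of the study. The 6 were chosen by their labels alone: 3 libraries of M2 cells with MCHP and 3 of M2 cells with DMSO. MCHP is a monoester of the plasticizer dicyclohexyl phthalate. All groups are of a single line that the labels name (PPRE)-eGEP-THP-1 without expanding the prefix, a derivative of THP-1, which is an established human line of monocytic leukaemia. In both M2 groups the cells had first had 48 h at 25 ng/mL of phorbol 12-myristate 13-acetate, which makes them adhere and differentiate, followed by a rest of 24 h. Interleukin 4 and interleukin 13, each at 20 ng/mL, were then present for 24 h, with MCHP at 100 µM in 1 group and solvent in the other. The amount of DMSO is not given in the sources used here. The 6 remaining libraries, M1 cells given lipopolysaccharide at 100 ng/mL and interferon gamma at 20 ng/mL with MCHP or DMSO, enter below through the shared estimate of spread and a test of the difference between both responses. The design text calls the replicates biological. Nothing else says that they were separate cultures. The p-values thus measure the spread between libraries within groups, estimated over all 12 libraries, M1 included, and this spread may in part be technical.

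Peroxisome proliferator-activated receptors (PPARs) are nuclear receptors that bind fatty acids and some synthetic ligands, pair with a retinoid X receptor and act on genes of lipid uptake, storage and oxidation. In macrophages the gamma form is known for raising CD36 and FABP4 and, through the sterol receptor LXR alpha, genes of cholesterol export. Interleukins 4 and 13 signal through STAT6 and give rise to the alternatively activated, or M2, state, which is marked by lectins and by a set of chemokines. The design text gives the regulation of polarization by MCHP as the question, which is asked here for M2 cells.

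Depth ran from 14352202 to 16871233 gene counts in the M2 libraries. The filter on low counts left 15252 genes to test. Values below are CPM (counts scaled to a common library total) adjusted with TMM factors, a normalization for the composition of each library. Summed levels of a list are CPM without these factors. Fold changes are on the log2 scale, MCHP over DMSO, from a fit of raw counts with edgeR's quasi-likelihood test, and a gene is called where its adjusted p (Benjamini-Hochberg, over 15252 genes) is under 0.05. CPM compare a gene between libraries. They are not scaled by gene length and do not rank genes against each other. The macrophage genes ITGAM (75297 counts over the 6 libraries), CSF1R (27505) and TYROBP (2321) were present. Of textbook M2 markers, MRC1 had 2 counts in all, CCL17 had 10 and CCL18 had 0 in 94247360 counts, which allows up to 0.0318 CPM. CD68 had 16 counts, but 85.8% of its exonic bases overlap another gene model, so its count is uncertain.

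M2 DMSO replicate 1 stood apart from the other libraries before any comparison was made. Set against the mean of M2 DMSO replicates 2 and 3 over 10058 genes, the SD of its log2 deviations was 0.33, while the other 11 libraries, each set against the rest of its group, had SDs of 0.14 to 0.20. The deviation followed the GC content of the genes. Its median was 0.22 in the 25% of genes with the lowest GC content and -0.35 in the 25% with the highest. On the first principal component of the M2 libraries (48.5% of the variance) this library lay at -26.2 and the other 5 lay between 2.15 and 10.1. On the second (27.3%) the MCHP libraries lay between 4.30 and 10.6, replicate 1 of DMSO at 4.16 and replicates 2 and 3 of DMSO at -11.9 and -12.9. Fold changes, and the counts of calls of each list, are therefore given with this library and without it. Where 2 log2 fold changes are joined by "and", the first is from all libraries and the second from the fit without M2 DMSO replicate 1.

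**Figure D1:**
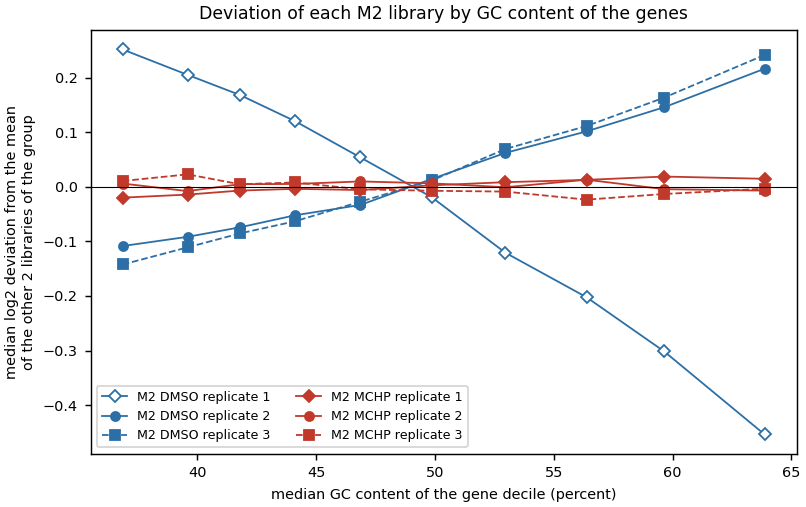
Median log2 deviation of each M2 library, relative to the average of its 2 fellow libraries (vertical axis) in 10 equal groups of genes ordered by GC content (horizontal axis, median GC in percent), with DMSO in blue, MCHP in red and M2 DMSO replicate 1 as open diamonds. The open diamonds run from above 0 at low GC to below 0 at high GC, the other 2 DMSO libraries mirror them because replicate 1 is part of their reference, and the 3 MCHP libraries stay near 0.

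MCHP changed 779 of the 15252 genes tested (5.11%), of which 446 were higher (2.92%) and 333 lower (2.18%). When M2 DMSO replicate 1 was left out, the call was made for 1747 genes (11.5%), 976 higher (6.4%) and 771 lower (5.06%). These percentages are the background for the counts of called members of each list below. The 2 sets share 750 genes, each with the same direction, which is 96.3% of the first and 42.9% of the second. Most changes were small: the median absolute log2 fold change of the 779 genes was 0.40, with 27 genes at or above 1 and 23 at or below -1. Against a minimum log2 fold change of 1 the test called only FABP4, PLIN2 and TLR4, all higher. With library size as the sole scaling the split was 306 higher and 465 lower, and the median over all genes moved from 0.00 to -0.04. Leaving out M2 MCHP replicate 1 or 3 lowered the count to 386 or 393. With offsets for GC content the shares were 6.57% higher and 3.88% lower. CPM of the 2 groups did not overlap, MCHP above or below DMSO, for 11.2% and 9.53% of genes, and for 20.3% and 18.8% without M2 DMSO replicate 1. Of the 779 genes called, 775 had groups that did not overlap. For called genes below, a lack of overlap is therefore a description and not further evidence. A fit of the M2 libraries alone called 183 genes, each of them among the 779, and 59 of the 141 called genes named by the rule for named genes.

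**Figure D2:**
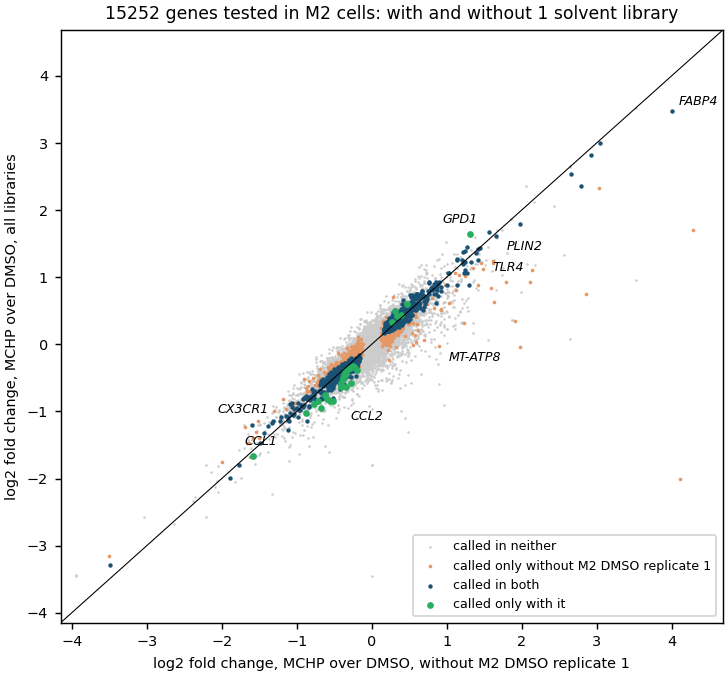
Log2 fold change of MCHP over DMSO for each of the 15252 genes tested, from all libraries (vertical axis) and without M2 DMSO replicate 1 (horizontal axis), with the line of equal values. The 750 genes called in both fits lie along the line, while MT-ATP8 lies near 0 in the first and at 0.90 in the second.

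Genes of fatty acid binding, uptake and storage were among the largest rises in M2 cells with MCHP. Of 34 tested members of a list of PPAR target genes, 19 rose and 0 fell, with a median log2 fold change of 0.35, where the median over all genes was 0.00. At an unadjusted p under 0.05 edgeR's test had 24 members higher and 1 lower, and DESeq2 and limma-voom each called 20 higher and 0 lower. In the fit without M2 DMSO replicate 1, 23 rose and 0 fell, with a median of 0.42. A list of lipid droplet coat proteins and lipolysis had 5 of 13 members higher and 0 lower in both fits, with medians of 0.42 and 0.26 (0 lower also at an unadjusted p under 0.05, by DESeq2 and by limma-voom). Of 18 genes of fatty acid binding, uptake and activation, 8 rose and OLR1 fell, against 9 and 1 without that library, with medians of 0.17 and 0.14.

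FABP4, the carrier of fatty acids best known from fat cells and also made by macrophages (ENSG00000170323, chromosome 8, 81478419 to 81483263, minus strand, hg38), was at 91.3, 106 and 78.3 CPM in M2 MCHP replicates 1 to 3 and 13.4, 6.18 and 5.30 CPM in M2 DMSO replicates 1 to 3. The solvent libraries were low and M2 DMSO replicate 1 was the highest of them, still far under each MCHP library. The log2 fold change was 3.48 ± 0.21 (SE, adjusted p = 2.2e-08), and 4.001 ± 0.13 without M2 DMSO replicate 1 (adjusted p = 1.5e-18). FABP5, a related carrier found in many cell types, was at 92.7, 101 and 79.3 CPM with MCHP and 39.3, 40.9 and 35.9 CPM with DMSO, for 1.23 and 1.25. Reads of FABP5 cannot be fully told from its processed pseudogenes, so its level is uncertain. CD36, the scavenger receptor that takes up oxidized lipoproteins and long-chain fatty acids (ENSG00000135218, chromosome 7, 80369575 to 80679277, plus strand), was at 293, 292 and 294 CPM with MCHP and 161, 121 and 127 CPM with DMSO. The 3 MCHP libraries nearly coincided and lay well above the solvent libraries, of which replicate 1 was the highest. Its log2 fold change was 1.10 ± 0.08 (SE, adjusted p = 3.1e-07), and 1.24 ± 0.05 without M2 DMSO replicate 1 (adjusted p = 1.8e-16).

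PLIN2, the coat protein of lipid droplets in most cells (ENSG00000147872, chromosome 9, 19108375 to 19149290, minus strand), was at 144, 156 and 143 CPM in M2 MCHP replicates 1 to 3 and 51.3, 46.4 and 47.1 CPM in M2 DMSO replicates 1 to 3. Neither group overlapped the other, and the 3 solvent libraries lay close together. The log2 fold change was 1.61 ± 0.07 (SE, adjusted p = 3.9e-10), and 1.66 ± 0.07 without M2 DMSO replicate 1 (adjusted p = 1.8e-16). HILPDA, a small droplet protein that inhibits the lipase ATGL, had lower levels, 8.65, 8.71 and 7.46 CPM with MCHP and 2.77, 2.94 and 4.56 CPM with DMSO, and again no overlap. Its log2 fold changes were 1.27 (adjusted p = 0.0012) and 1.14 (adjusted p = 0.00053). ANGPTL4, a secreted inhibitor of lipoprotein lipase, was at 8.39 to 10.1 CPM with MCHP and 5.80 to 6.30 CPM with DMSO, for 0.61 (adjusted p = 0.019) and 0.58 (adjusted p = 0.017), but lost its call when M2 MCHP replicate 2 was left out (0.54, adjusted p = 0.074) or 3 (0.60, adjusted p = 0.067) or in the M2 libraries alone (adjusted p = 0.069).

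**Figure D3:**
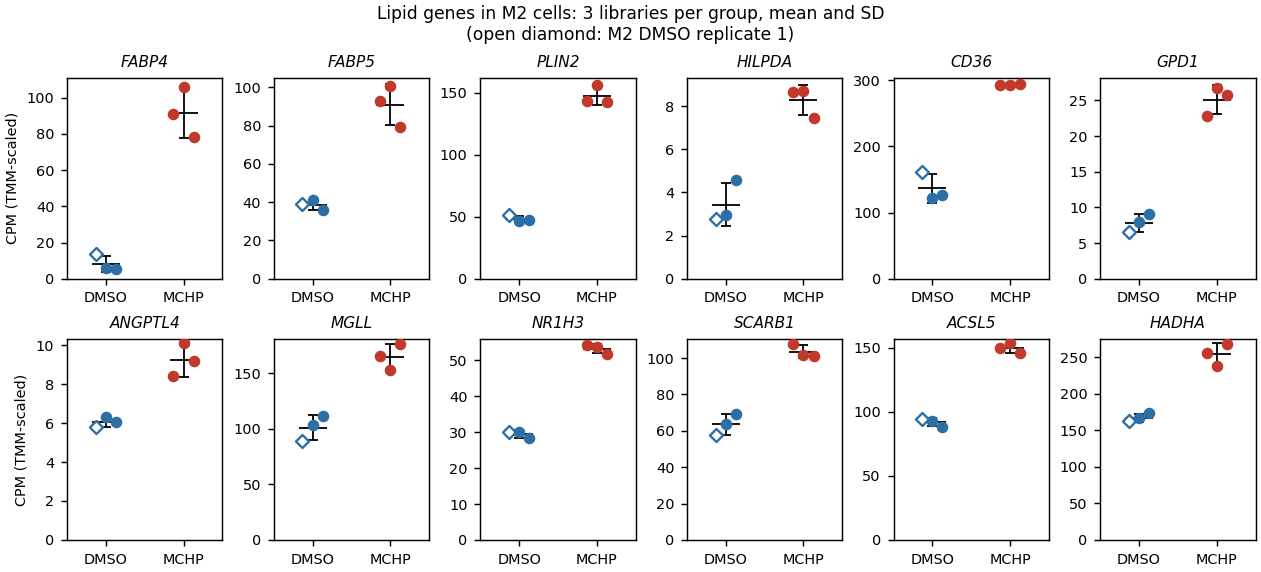
TMM-scaled CPM of 12 lipid genes in the 3 DMSO and 3 MCHP libraries of M2 cells (points; bars are the mean and SD, vertical axes start at 0, and the open diamond is M2 DMSO replicate 1). In each panel the 3 MCHP libraries lie above the 3 DMSO libraries, from 78.3 to 106 against 5.30 to 13.4 CPM for FABP4.

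The sequence before the start of PLIN2 and of NR1H3 is shown because these genes rose together and are both textbook PPAR targets. Both stretches are the 250 bases before the RefSeq start in GRCh38.p14, at chr9:19127493-19127742 on the minus strand and chr11:47248050-47248299 on the plus strand, 5′ to 3′. Capitals mark AGGTCA, the hexamer that PPARs and other nuclear receptors bind, and TATAAA, the TATA box, each searched on both strands. NR1H3 has 4 windows in the table, of which the one with this hexamer is printed.
PLIN2: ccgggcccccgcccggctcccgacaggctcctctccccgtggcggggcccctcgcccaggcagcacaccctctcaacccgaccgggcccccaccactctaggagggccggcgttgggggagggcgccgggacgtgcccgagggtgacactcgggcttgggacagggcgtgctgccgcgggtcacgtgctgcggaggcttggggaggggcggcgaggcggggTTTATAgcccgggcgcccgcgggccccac
NR1H3: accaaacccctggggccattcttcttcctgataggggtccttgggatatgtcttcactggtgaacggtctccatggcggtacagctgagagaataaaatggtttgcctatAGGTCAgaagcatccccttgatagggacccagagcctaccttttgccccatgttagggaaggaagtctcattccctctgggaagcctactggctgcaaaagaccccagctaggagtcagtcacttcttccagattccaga
The window of PLIN2 holds TATAAA on the opposite strand, starting 29 bases before the start, and no AGGTCA. That of NR1H3 holds AGGTCA starting 140 bases before the start. AGGTCA is in 12.1% of all 35116 promoter windows of this length, in 9.25% of those of genes tested, in 8.49% of 518 windows of genes called higher and in 9.51% of 326 windows of genes called lower. The element for a PPAR and its partner, AGGTCA in 2 direct copies with any 1 base between them, which also counts as AGGTCA, is in 6 of all windows (0.0171%) and in 0 of the 518 and 0 of the 326. TATAAA is in 10.7% of all windows, 6.09% of those of genes tested, 7.92% of those called higher and 11.7% of those called lower. An entry was found for 322 of the 446 genes called higher and 229 of the 333 called lower.

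Some enzymes that make and break down stored fat rose. GPD1, which makes glycerol 3-phosphate, the backbone of triglycerides (ENSG00000167588, chromosome 12, 50103819 to 50111319, plus strand), was at 22.8, 26.7 and 25.7 CPM in M2 MCHP replicates 1 to 3 and 6.55, 7.88 and 9.06 CPM in M2 DMSO replicates 1 to 3. The groups were far apart, with replicate 1 the lowest of the solvent libraries. The log2 fold change was 1.68 ± 0.15 (SE, adjusted p = 1.5e-06), and 1.56 ± 0.14 without M2 DMSO replicate 1 (adjusted p = 1.2e-08). DGAT2, which adds the last fatty acid to a triglyceride, was at 228 to 241 CPM with MCHP and 138 to 168 CPM with DMSO, for 0.59 (adjusted p = 3e-05) and 0.51 (adjusted p = 1.2e-08). MGLL, which splits monoglycerides in lipolysis, was at 153 to 176 CPM with MCHP and 88.9 to 111 CPM with DMSO, for 0.71 (adjusted p = 2.8e-05) and 0.62 (adjusted p = 2e-08). ABHD5, the coactivator of ATGL, was at 33.6 to 38.2 CPM with MCHP and 22.1 to 29.3 CPM with DMSO, for 0.56 (adjusted p = 0.0023) and 0.69 (adjusted p = 1.3e-06), and was not called in the M2 libraries alone (adjusted p = 0.052). Of 19 genes of glycerol phosphate and triglyceride synthesis 3 rose in both fits, with medians of 0.08 and 0.06.

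ACSL5, which activates long-chain fatty acids with coenzyme A, was at 150.0, 154 and 146 CPM with MCHP and 94.4, 92.9 and 88.2 CPM with DMSO. The MCHP libraries lay above the solvent libraries with a wide gap, for 0.71 (adjusted p = 6.6e-07) and 0.73 (adjusted p = 8.6e-11). OLR1, the lectin-like receptor for oxidized lipoprotein, went the other way, at 324 to 348 CPM with MCHP and 393 to 446 CPM with DMSO, for -0.28 (adjusted p = 0.0077) and -0.23 (adjusted p = 0.00094) (not called in the M2 libraries alone, adjusted p = 0.1). LPL, the lipase that frees fatty acids from lipoproteins and a textbook PPAR gamma target, was at 505 to 543 CPM with MCHP and 551 to 642 CPM with DMSO, and did not pass, for -0.14 (adjusted p = 0.24) and -0.07 (adjusted p = 0.4). PDK4, a kinase often used as a marker of PPAR activity, had 0 counts in the 6 libraries.

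Fatty acid oxidation changed in a few enzymes. Of 22 tested genes of mitochondrial oxidation 3 rose and HADH fell, with a median of 0.08. With M2 DMSO replicate 1 left out, 6 rose and 1 fell, with a median of 0.07. HADHA, the alpha subunit of the trifunctional protein of long-chain oxidation (ENSG00000084754, chromosome 2, 26190635 to 26244726, minus strand), was at 256, 239 and 269 CPM with MCHP and 163, 167 and 173 CPM with DMSO. All MCHP libraries lay above the solvent libraries in each case, for 0.60 ± 0.06 (adjusted p = 4.7e-06) and 0.58 ± 0.05 (adjusted p = 4.1e-09). HADHB, its beta subunit and neighbour on the chromosome, was at 208 to 230.3 CPM with MCHP and 159 to 184 CPM with DMSO, for 0.35 (adjusted p = 0.0023) and 0.42 (adjusted p = 1.3e-06). HADH, the short-chain enzyme of the same step, was lower, at 56.1 to 57.8 CPM with MCHP and 71.7 to 84.8 CPM with DMSO, for -0.43 (adjusted p = 0.0016) and -0.36 (adjusted p = 0.00015). ACADVL, the first dehydrogenase of the pathway, was at 429 to 465 CPM with MCHP and 324 to 391 CPM with DMSO, for 0.29 (adjusted p = 0.017) and 0.20 (adjusted p = 0.0027), and lost its call without M2 MCHP replicate 1 (0.28, adjusted p = 0.076) or 2 (0.26, adjusted p = 0.063). CPT1A, which lets fatty acids into mitochondria, was at 40.6 to 53.5 CPM with MCHP and 29.6 to 38.02 CPM with DMSO, for 0.37 (adjusted p = 0.059) and 0.26 (adjusted p = 0.064), and did not pass although its groups did not overlap.

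Of 31 peroxisomal genes 3 rose (9.68%, beside 2.92% over all genes tested) and 0 fell, with a median of 0.02. At an unadjusted p under 0.05 edgeR's test had 4 higher and 3 lower. PEX19, which carries membrane proteins to peroxisomes, was at 77.3 to 78.6 CPM with MCHP and 59.2 to 62.2 CPM with DMSO, for 0.35 (adjusted p = 0.004) and 0.33 (adjusted p = 0.00057). HADHB, ACADVL and PEX19 were not called in the M2 libraries alone (adjusted p = 0.055 to 0.17). With M2 DMSO replicate 1 removed, 3 peroxisomal genes rose and 2 fell, with a median of 0.02. Over all genes tested 6.4% rose and 5.06% fell without that library.

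The genes of the PPARs themselves were not called with all libraries. PPARG (ENSG00000132170, chromosome 3, 12287368 to 12434356, plus strand) was at 96.01, 92.9 and 84.8 CPM with MCHP and 128, 89.6 and 95.998 CPM with DMSO. Replicate 1 of DMSO was the highest library and the groups overlapped, for -0.19 (adjusted p = 0.34) and -0.02 (adjusted p = 0.88). PPARA was at 43.7 to 49.6 CPM with MCHP and 44.5 to 46.4 CPM with DMSO, for 0.04 (adjusted p = 0.84) and 0.02 (adjusted p = 0.93), and RXRA, the partner of all 3 PPARs, was at 81.2 to 92.2 CPM with MCHP and 61.8 to 90.8 CPM with DMSO, for 0.09 (adjusted p = 0.73) and -0.07 (adjusted p = 0.52). PPARD was at 360.3, 349.9 and 372 CPM with MCHP and 315, 424 and 425 CPM with DMSO. Its solvent libraries lay on both sides of the MCHP libraries, with replicate 1 lowest, and PPARD was called lower only without that library, for -0.11 (adjusted p = 0.54) and -0.24 (adjusted p = 0.0002). Of 27 tested nuclear receptor genes, NR1H3, THRA and NR1D2 rose and NR4A2 fell, against 3 higher and 4 lower without that library.

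NR1H3 encodes LXR alpha, the oxysterol receptor that turns on cholesterol export (ENSG00000025434, chromosome 11, 47248300 to 47269032, plus strand), and was at 54.4, 53.7 and 51.8 CPM in M2 MCHP replicates 1 to 3 and 30.1, 30.1 and 28.3 CPM in M2 DMSO replicates 1 to 3. The 2 groups were tight and well apart, for 0.85 ± 0.07 (SE, adjusted p = 7.6e-07), and 0.87 ± 0.07 without M2 DMSO replicate 1 (adjusted p = 2.1e-09). THRA, a thyroid hormone receptor, was at 17.2 to 19.5 CPM with MCHP and 9.77 to 12.9 CPM with DMSO, for 0.64 (adjusted p = 0.0049) and 0.53 (adjusted p = 0.0035). NR1D2, a receptor of the circadian clock, was at 49.97 to 56.3 CPM with MCHP and 36.9 to 44.5 CPM with DMSO, for 0.44 (adjusted p = 0.0035) and 0.54 (adjusted p = 6e-06) (not called in the M2 libraries alone, adjusted p = 0.064). NR4A2, an orphan receptor and immediate early gene, was at 3.29 to 4.24 CPM with MCHP and 6.44 to 8.47 CPM with DMSO, for -0.91 (adjusted p = 0.0011) and -0.94 (adjusted p = 0.00019).

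Of 20 tested LXR targets and genes of cholesterol export 6 rose, against 6 higher and 3 lower without M2 DMSO replicate 1, with medians of 0.07 and 0.06. SCARB1, the receptor that exchanges cholesterol with high density lipoprotein, was at 108, 102 and 101 CPM with MCHP and 57.7, 63.9 and 69.1 CPM with DMSO. The lowest MCHP library was above the highest solvent library, for 0.70 ± 0.07 (adjusted p = 1.9e-05) and 0.64 ± 0.06 (adjusted p = 3e-08). SCD, the desaturase that makes oleate, was at 1655 to 1798 CPM with MCHP and 1174 to 1296 CPM with DMSO, for 0.46 (adjusted p = 4.3e-05) and 0.42 (adjusted p = 3.8e-08). NCEH1, a hydrolase of cholesterol esters, was at 123 to 140.3 CPM with MCHP and 100.2 to 107 CPM with DMSO, for 0.33 (adjusted p = 0.0042) and 0.35 (adjusted p = 9.2e-05). TECR, an enzyme of fatty acid elongation, was at 181 to 191 CPM with MCHP and 134 to 159 CPM with DMSO, for 0.32 (adjusted p = 0.0071) and 0.24 (adjusted p = 0.00078). NCEH1 and TECR were not called in the M2 libraries alone (adjusted p = 0.089 to 0.12). Of 26 genes of cholesterol synthesis and uptake 1 rose, against 2 without that library, with medians of 0.08 and 0.06. With all libraries that was 3.85%, near the 2.92% over all genes tested. Of 22 genes of fatty acid synthesis 3 rose (13.6%), against 4 higher and 2 lower.

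Of 27 tested coregulators of nuclear receptors and lipid regulators 3 rose, against 4 higher and 4 lower without M2 DMSO replicate 1. CEBPA, a factor of myeloid and fat cell differentiation, was at 140.0, 142 and 139 CPM with MCHP and 56.3, 106 and 104 CPM with DMSO. Replicate 1 of DMSO was far below the other solvent libraries and the fold change was smaller without it, for 0.66 (adjusted p = 0.012) and 0.42 (adjusted p = 1.5e-06). Its call was lost when M2 MCHP replicate 3 was left out (0.66, adjusted p = 0.052) or in the M2 libraries alone (adjusted p = 0.13). Antisense gene models overlap 43.4% of the exonic bases of CEBPA, and no strand setting is given, so its count is uncertain.

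Markers of lipid-associated macrophages, cells described in obese fat tissue, were split. Of 22 tested members 5 rose and 2 fell, with a median of -0.02. When M2 DMSO replicate 1 was left out, 6 rose and 3 fell, with a median of 0.01. Those that rose were FABP4, PLIN2, FABP5, CD36 and NCEH1, which handle lipids. TREM2, the lipid-sensing receptor of these cells, was lower, at 41.1, 44.9 and 42.04 CPM with MCHP and 59.7, 54.1 and 59.9 CPM with DMSO. Each MCHP library lay below every solvent library, for -0.44 (adjusted p = 0.008) and -0.42 (adjusted p = 0.0011), but the call was lost without M2 MCHP replicate 1 (-0.41, adjusted p = 0.057). TYROBP, the adaptor that carries its signal, was at 20.7, 21.9 and 16.2 CPM with MCHP and 28.98, 27.2 and 26.5 CPM with DMSO, for -0.49 (adjusted p = 0.0089) and -0.45 (adjusted p = 0.0031), and was not called in the M2 libraries alone (adjusted p = 0.081). In whole cultures like these, fewer cells of a kind and less RNA per cell cannot be told apart.

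Chemokine genes fell more often than they rose. Of 24 tested CC and CXC chemokines 7 fell and CCL22 rose, with a median of -0.13. When M2 DMSO replicate 1 was left out, 7 fell and 2 rose, with a median of -0.01. Of the 7, CCL1, CCL2, CCL7, CCL8 and CCL13 lie within the chemokine cluster on chromosome 17, from 34255218 to 34363231 (hg38). CCL1, a ligand of CCR8 (ENSG00000108702, chromosome 17, 34360328 to 34363231, minus strand), was at 113, 125 and 102 CPM in M2 MCHP replicates 1 to 3 and 333, 239 and 252 CPM in M2 DMSO replicates 1 to 3. Each MCHP library was under the lowest solvent library, and replicate 1 was the highest. Its log2 fold change was -1.28 ± 0.10 (SE, adjusted p = 7.6e-07), and -1.12 ± 0.07 without M2 DMSO replicate 1 (adjusted p = 1.5e-12). CCL2, the main attractant of monocytes (ENSG00000108691, chromosome 17, 34255218 to 34257203, plus strand), was at 50.5, 59.6 and 44.03 CPM in M2 MCHP replicates 1 to 3 and 122, 75.2 and 72.8 CPM in M2 DMSO replicates 1 to 3. Replicate 1 of DMSO was high above the other 2 solvent libraries, which still lay above the MCHP libraries. The log2 fold change was -0.81 ± 0.15 (SE, adjusted p = 0.0032), and -0.52 ± 0.08 without M2 DMSO replicate 1 (adjusted p = 4.2e-05), and CCL2 was not called in the M2 libraries alone (adjusted p = 0.056).

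CCL7, another ligand of CCR2 (ENSG00000108688, chromosome 17, 34270221 to 34272242, plus strand), was at 19.3, 18.98 and 17.7 CPM with MCHP and 34.2, 25.5 and 23.999 CPM with DMSO, for -0.58 (adjusted p = 0.0044) and -0.41 (adjusted p = 0.0014) (not called in the M2 libraries alone, adjusted p = 0.065). CCL8 (ENSG00000108700, chromosome 17, 34319036 to 34321402, plus strand) was at 2.07, 1.74 and 1.51 CPM with MCHP and 3.72, 4.18 and 3.14 CPM with DMSO, for -1.05 (adjusted p = 0.00088) and -1.04 (adjusted p = 0.00067). CCL13, which is induced by interleukins 4 and 13 (ENSG00000181374, chromosome 17, 34356452 to 34358610, plus strand), was at 2.52, 1.22 and 2.05 CPM with MCHP and 3.91, 4.59 and 5.81 CPM with DMSO, for -1.32 (adjusted p = 0.0037) and -1.44 (adjusted p = 0.00022). Values with MCHP were below the solvent libraries for each of these 3 genes, and M2 DMSO replicate 1 was the highest for CCL7 and the lowest of its group for CCL13. Counts were low, at 22 to 32 with MCHP and 55 to 71 with DMSO for CCL8, and at 21 to 39 and 62 to 102 for CCL13, which limits the precision of both. Chemokines of this cluster are similar in sequence, so the split of reads between them is uncertain.

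The 100 bases before the RefSeq starts of CCL7, CCL8 and CCL13 are shown because these neighbours fell together and share a feature. The shared feature was thus part of the choice, and CCL1 and CCL2, which also fell, are not shown. The printed stretches lie at chr17:34270121-34270220, chr17:34319335-34319434 and chr17:34356380-34356479 in GRCh38.p14, on the plus strand, with TATAAA in capitals.
CCL7: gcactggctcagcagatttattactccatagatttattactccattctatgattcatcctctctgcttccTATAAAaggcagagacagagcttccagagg
CCL8: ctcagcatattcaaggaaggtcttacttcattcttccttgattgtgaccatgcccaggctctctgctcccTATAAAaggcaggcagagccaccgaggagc
CCL13: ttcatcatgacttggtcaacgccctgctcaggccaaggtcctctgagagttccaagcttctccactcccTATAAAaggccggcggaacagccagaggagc
TATAAA begins 30 bases before the start of CCL7 and of CCL8 and 31 bases before that of CCL13. AGGTCA is not in these letters. The match is a description of the sequence, and TATAAA is in 6.09% of the windows of genes tested.

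Away from the cluster, CCL5, an attractant of T cells and monocytes, was at 3287, 3357 and 2966 CPM with MCHP and 4083, 3996 and 4142 CPM with DMSO. The MCHP libraries lay below the solvent libraries, for -0.35 (adjusted p = 0.00049) and -0.35 (adjusted p = 1.8e-06). CCL22, a ligand of CCR4 and an M2 chemokine, rose, at 1152, 1241 and 1248 CPM with MCHP and 629.5, 808 and 787 CPM with DMSO. Its 3 MCHP libraries were above each solvent library, with replicate 1 the lowest, for 0.71 ± 0.08 (adjusted p = 5.6e-05) and 0.61 ± 0.05 (adjusted p = 2.1e-09). CXCL16, both a chemokine and a scavenger receptor, was at 11.6 to 14.2 CPM with MCHP and 16.7 to 18.9 CPM with DMSO, for -0.46 (adjusted p = 0.0085) and -0.51 (adjusted p = 0.00068) (not called in the M2 libraries alone, adjusted p = 0.11). Of 19 tested chemoattractant receptors CX3CR1 and C3AR1 fell, with 2 lower and 0 higher also without M2 DMSO replicate 1 (1 higher at an unadjusted p under 0.05, 0 by DESeq2 and by limma-voom). CX3CR1, the fractalkine receptor (ENSG00000168329, chromosome 3, 39263494 to 39281735, minus strand), was at 7.81, 6.44 and 6.16 CPM in M2 MCHP replicates 1 to 3 and 15.8, 14.1 and 15.1 CPM in M2 DMSO replicates 1 to 3, with no overlap. Its log2 fold change was -1.14 ± 0.13 (SE, adjusted p = 4e-05), and -1.10 ± 0.14 without M2 DMSO replicate 1 (adjusted p = 3.5e-06).

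**Figure D4:**
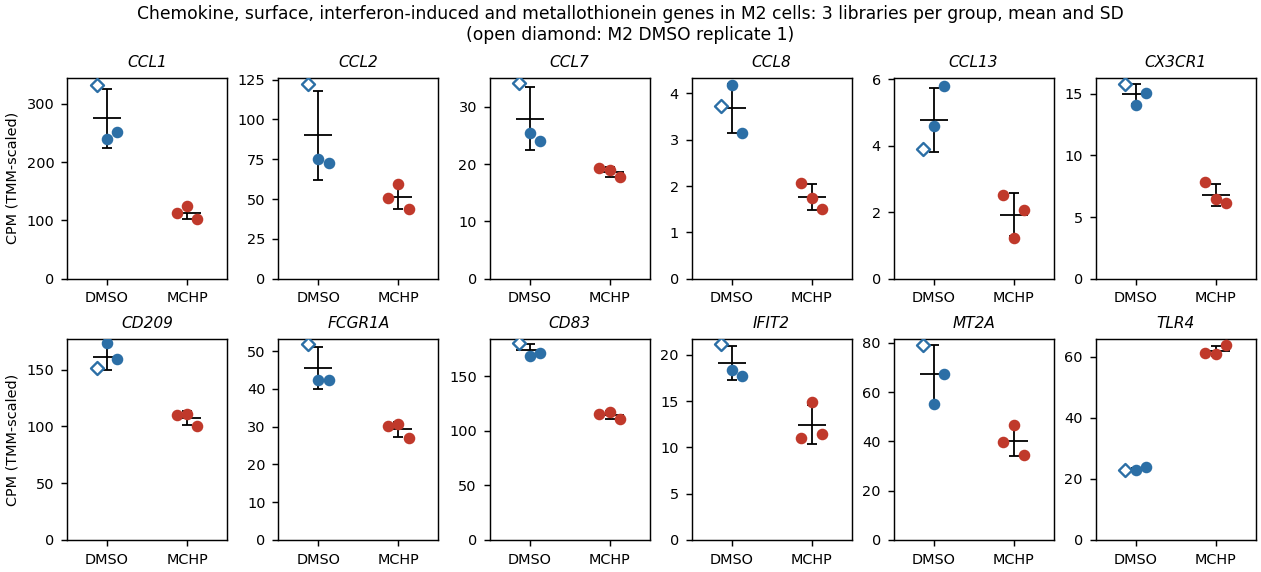
TMM-scaled CPM of 12 immune and metal-binding genes in the 3 DMSO and 3 MCHP libraries of M2 cells (points; bars are the mean and SD, vertical axes start at 0, and the open diamond is M2 DMSO replicate 1). In 11 panels the MCHP libraries lie below the DMSO libraries, with replicate 1 of DMSO far above the other 2 for CCL2, and in the panel of TLR4 they lie above, at 60.9 to 63.7 against 22.8 to 23.8 CPM.

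Receptors for antibodies and complement had called genes in 1 direction. Of 15 tested Fc and complement receptors 6 fell and 0 rose, with a median of -0.37, and 0 were higher at an unadjusted p under 0.05, by DESeq2 or by limma-voom. In the fit without M2 DMSO replicate 1, 7 fell and 0 rose, with a median of -0.23. FCGR1A, the high-affinity receptor for immunoglobulin G, was at 30.2, 30.8 and 26.9 CPM with MCHP and 51.9, 42.2 and 42.4 CPM with DMSO. The MCHP libraries lay below the solvent libraries, for -0.63 ± 0.08 (adjusted p = 0.00013) and -0.53 ± 0.06 (adjusted p = 1.4e-06). Antisense gene models overlap 24.6% of the exonic bases of FCGR1A, so its count is uncertain. FCGR1B, a near-identical copy, was at 3.29 to 4.47 CPM with MCHP and 6.06 to 8.38 CPM with DMSO, for -0.81 (adjusted p = 0.0048) and -0.67 (adjusted p = 0.006), and reads of both genes may be split between them. C3AR1, the receptor for the complement fragment C3a, was at 21.7 to 24.4 CPM with MCHP and 30.2 to 35.2 CPM with DMSO, for -0.45 (adjusted p = 0.002) and -0.37 (adjusted p = 0.00058), and VSIG4, a complement receptor of resident macrophages, was at 71.6 to 92.5 CPM with MCHP and 107 to 117 CPM with DMSO, for -0.41 (adjusted p = 0.0054) and -0.37 (adjusted p = 0.00068). FCGR1B, C3AR1 and VSIG4 were not called in the M2 libraries alone (adjusted p = 0.063 to 0.069).

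Of 19 tested C-type lectins, scavenger and phagocytic receptors 5 fell and SCARB1 and CD36 rose, with a median of -0.27. With M2 DMSO replicate 1 left out, 5 fell and 3 rose, with a median of -0.09. CD209 (DC-SIGN), a lectin induced by interleukin 4 (ENSG00000090659, chromosome 19, 7739994 to 7747564, minus strand), was at 109.7, 111 and 100.0 CPM in M2 MCHP replicates 1 to 3 and 151, 173 and 159 CPM in M2 DMSO replicates 1 to 3. Solvent replicate 1 was the lowest of its group and was still above the MCHP libraries, for -0.59 ± 0.07 (SE, adjusted p = 9.2e-05), and -0.63 ± 0.06 without M2 DMSO replicate 1 (adjusted p = 2.6e-08). CLEC7A (dectin-1), the receptor for fungal glucan, was at 187, 186 and 197 CPM with MCHP and 309, 244 and 248 CPM with DMSO. The MCHP libraries were below the solvent libraries, for -0.49 (adjusted p = 0.0012) and -0.37 (adjusted p = 1.1e-05).

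TLR4, which senses lipopolysaccharide at the cell surface (ENSG00000136869, chromosome 9, 117704175 to 117724730, plus strand), was the sole Toll-like receptor called higher with all libraries. It was at 61.3, 60.9 and 63.7 CPM in M2 MCHP replicates 1 to 3 and 22.998, 22.8 and 23.8 CPM in M2 DMSO replicates 1 to 3. Both groups were tight and well apart, for 1.42 ± 0.07 (SE, adjusted p = 1.7e-09), and 1.41 ± 0.07 without M2 DMSO replicate 1 (adjusted p = 1.6e-13). Of the 21 tested Toll-like receptors and adaptors TLR4 alone rose, and UNC93B1, which escorts endosomal Toll-like receptors, and MYD88, their shared adaptor, fell. UNC93B1 was at 63.8 to 66.1 CPM with MCHP and 72.5 to 84.5 CPM with DMSO, for -0.30 (adjusted p = 0.014) and -0.37 (adjusted p = 5.3e-05), and MYD88 at 72.8 to 75.3 CPM with MCHP and 83.2 to 87.1 CPM with DMSO, for -0.20 (adjusted p = 0.042) and -0.20 (adjusted p = 0.0081). Both are small changes that were lost when M2 DMSO replicate 2 was left out (-0.28, adjusted p = 0.051 for UNC93B1 and -0.18, adjusted p = 0.12 for MYD88), or replicate 3 (-0.26, adjusted p = 0.054 and -0.21, adjusted p = 0.057) or M2 MCHP replicate 1 (-0.30, adjusted p = 0.068 and -0.21, adjusted p = 0.1). MYD88 was also lost without M2 MCHP replicate 2 (-0.19, adjusted p = 0.11) or 3 (-0.21, adjusted p = 0.081), with no filter (adjusted p = 0.15) and with a replicate block (adjusted p = 0.1). Neither UNC93B1 nor MYD88 was called in the M2 libraries alone (adjusted p = 0.12 and 0.25). With M2 DMSO replicate 1 removed, 2 members of the list rose and 3 fell. CD14, the coreceptor of TLR4, was at 6.59 to 8.07 CPM with MCHP and 7.002 to 8.95 CPM with DMSO, for -0.09 and -0.09, and was not called. It was named after its values were seen.

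Markers of both polarization states fell in part. Of 23 tested genes induced by interleukins 4 and 13, 6 fell and CCL22 rose, with a median of -0.24, and without M2 DMSO replicate 1, 7 fell and 1 rose, with a median of -0.29. CHI3L1, a secreted chitinase-like protein, was at 3194, 3217 and 2787 CPM with MCHP and 4015, 3589.9 and 3868 CPM with DMSO. All MCHP libraries lay below the solvent libraries by a small margin, for -0.32 (adjusted p = 0.0032) and -0.28 (adjusted p = 0.00017) (not called in the M2 libraries alone, adjusted p = 0.071). ALOX15, the lipoxygenase that interleukin 4 induces in human monocytes, was at 7.04, 7.72 and 6.98 CPM with MCHP and 9.14, 14.8 and 11.6 CPM with DMSO. Its groups did not overlap, but replicate 1 lay nearest to the MCHP libraries, and ALOX15 was called only without it, for -0.71 (adjusted p = 0.12) and -0.86 (adjusted p = 0.0089). TGM2, a transglutaminase and M2 marker, was at 9918 to 10115 CPM with MCHP and 8021 to 10191 CPM with DMSO, and CD163, the haemoglobin scavenger receptor, at 13.6 to 14.5 CPM with MCHP and 14.7 to 16.7 CPM with DMSO. Neither passed, with 0.10 and -0.0044 for TGM2 and -0.17 and -0.21 for CD163. STAT6, the factor that carries the signal of both interleukins, was at 122 to 128 CPM with MCHP and 143 to 152 CPM with DMSO, for -0.24 (adjusted p = 0.021) and -0.26 (adjusted p = 0.00074). It lost its call without M2 DMSO replicate 2 (-0.22, adjusted p = 0.07) or M2 MCHP replicate 1 (-0.24, adjusted p = 0.083) or 2 (-0.22, adjusted p = 0.068), and in the M2 libraries alone (adjusted p = 0.15).

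Of 23 tested M1 markers 9 fell and PTGS2 and CD86 rose, in both fits, with medians of -0.16 and -0.06. TNFSF10 (TRAIL), a death ligand, was at 14.5, 13.5 and 12.3 CPM with MCHP and 28.04, 19.9 and 22.004 CPM with DMSO. Each solvent library was above each MCHP library and replicate 1 was the highest, for -0.79 ± 0.11 (adjusted p = 0.00018) and -0.64 ± 0.08 (adjusted p = 3.3e-06). IL23A, a subunit of interleukin 23, was at 66.9 to 93.1 CPM with MCHP and 107 to 119 CPM with DMSO, for -0.46 (adjusted p = 0.011) and -0.51 (adjusted p = 0.00019), and CD40, the costimulatory receptor, was at 37.9 to 50.4 CPM with MCHP and 58.4 to 61.9 CPM with DMSO, for -0.41 (adjusted p = 0.0075) and -0.38 (adjusted p = 0.0011). PTGS2, the inducible cyclooxygenase, rose, at 14.4 to 18.4 CPM with MCHP and 10.7 to 12.98 CPM with DMSO, for 0.51 (adjusted p = 0.0047) and 0.60 (adjusted p = 0.00012). IL23A, CD40 and PTGS2 were not called in the M2 libraries alone (adjusted p = 0.08 to 0.12). CD86, a ligand of CD28, was at 152 to 174 CPM with MCHP and 118 to 146 CPM with DMSO, for 0.35 (adjusted p = 0.014) and 0.45 (adjusted p = 5.7e-06). It lost its call without M2 DMSO replicate 2 (0.29, adjusted p = 0.061) or M2 MCHP replicate 1 (0.34, adjusted p = 0.067) or 2 (0.31, adjusted p = 0.061), and in the M2 libraries alone (adjusted p = 0.12).

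The list of MHC class II and costimulation genes had, with all libraries, the lowest median of the 40 pathway lists. It was -0.39 over 26 tested members, with 5 lower and CD86 higher. With M2 DMSO replicate 1 omitted, the counts were equal and the median was -0.23. CD83, a surface protein of mature dendritic cells, was at 115, 118 and 111 CPM with MCHP and 181, 169 and 171 CPM with DMSO. The 2 groups were tight and did not overlap, for -0.60 ± 0.06 (adjusted p = 1.2e-05) and -0.57 ± 0.05 (adjusted p = 1.4e-08). CD74, the invariant chain of MHC class II, was at 135, 153 and 144 CPM with MCHP and 174, 199.6 and 193 CPM with DMSO, with replicate 1 the lowest of the solvent libraries, for -0.39 (adjusted p = 0.001) and -0.45 (adjusted p = 4.4e-07). LGALS9, a galectin, was at 17.8 to 19.7 CPM with MCHP and 23.5 to 26.1 CPM with DMSO, for -0.41 (adjusted p = 0.0027) and -0.44 (adjusted p = 0.00016) (not called in the M2 libraries alone, adjusted p = 0.085).

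Type I interferon genes gave a different median with and without M2 DMSO replicate 1. Of 34 tested members 5 fell and 0 rose, with a median of -0.20, and none was higher at an unadjusted p under 0.05, by DESeq2 or by limma-voom. Without that library 5 fell and 3 rose, and the median was -0.03. The summed level of the list was 1406, 1558 and 1497 CPM with MCHP and 2015, 1540 and 1463 CPM with DMSO, so replicate 1 was high and the other 2 solvent libraries lay among the MCHP libraries. IFIT2, an interferon-induced inhibitor of translation, was at 10.98, 14.9 and 11.5 CPM with MCHP and 21.2, 18.4 and 17.7 CPM with DMSO. Its groups did not overlap with or without replicate 1, for -0.61 (adjusted p = 0.0015) and -0.53 (adjusted p = 0.0004) (not called in the M2 libraries alone, adjusted p = 0.06). IFITM1, a membrane protein that blocks virus entry, was at 5.04, 5.34 and 4.45 CPM with MCHP and 10.1, 7.12 and 6.04 CPM with DMSO, and TRIM22, an interferon-induced ligase, was at 6.39, 9.11 and 6.64 CPM with MCHP and 16.2, 9.71 and 9.12 CPM with DMSO. Both were highest in replicate 1 and were called only with it, for -0.63 (adjusted p = 0.023) and -0.40 (adjusted p = 0.055) in IFITM1 and -0.64 (adjusted p = 0.04) and -0.34 (adjusted p = 0.069) in TRIM22. Their calls were also lost without M2 MCHP replicate 1 (-0.65, adjusted p = 0.075 and -0.55, adjusted p = 0.17) or 3 (-0.58, adjusted p = 0.11 and -0.58, adjusted p = 0.17). Neither was called in the M2 libraries alone (adjusted p = 0.17 and 0.22) or by limma-voom (adjusted p = 0.079 and 0.082). IFITM2 overlaps 32.5% of the exonic bases of IFITM1, whose count is uncertain.

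Of 44 tested cytokines and cytokine receptors 7 fell and 3 rose, against 10 and 5 without M2 DMSO replicate 1. With all libraries the shares were 15.9% and 6.82%, beside 2.18% and 2.92% over all genes tested. IL10RA, a subunit of the interleukin 10 receptor, was at 229, 238 and 235 CPM with MCHP and 299, 344 and 335 CPM with DMSO. The solvent libraries were all above the MCHP libraries, for -0.48 ± 0.06 (adjusted p = 9.3e-05) and -0.54 ± 0.04 (adjusted p = 2.1e-09). CSF1R, the receptor for the growth factor of macrophages, was at 244 to 256 CPM with MCHP and 289 to 323 CPM with DMSO, for -0.32 (adjusted p = 0.0018) and -0.37 (adjusted p = 5.4e-07) (not called in the M2 libraries alone, adjusted p = 0.061). IL6R, the interleukin 6 receptor, rose, at 50.1 to 54.6 CPM with MCHP and 37.05 to 39.2 CPM with DMSO, for 0.44 (adjusted p = 0.0016) and 0.42 (adjusted p = 0.00019). Among 23 tested genes of eicosanoids 2 fell and 1 rose, against 4 and 1 without M2 DMSO replicate 1. ALOX5, the first enzyme of leukotriene synthesis, was at 14.8, 15.8 and 16.6 CPM with MCHP and 24.9, 26.1 and 24.9 CPM with DMSO, with no overlap, for -0.68 ± 0.08 (adjusted p = 5.6e-05) and -0.70 ± 0.08 (adjusted p = 1.5e-06). PTGS1, the constitutive cyclooxygenase, was at 892 to 928 CPM with MCHP and 1055 to 1102 CPM with DMSO, for -0.25 (adjusted p = 0.0047) and -0.27 (adjusted p = 2.2e-05) (not called in the M2 libraries alone, adjusted p = 0.11).

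**Figure D5:**
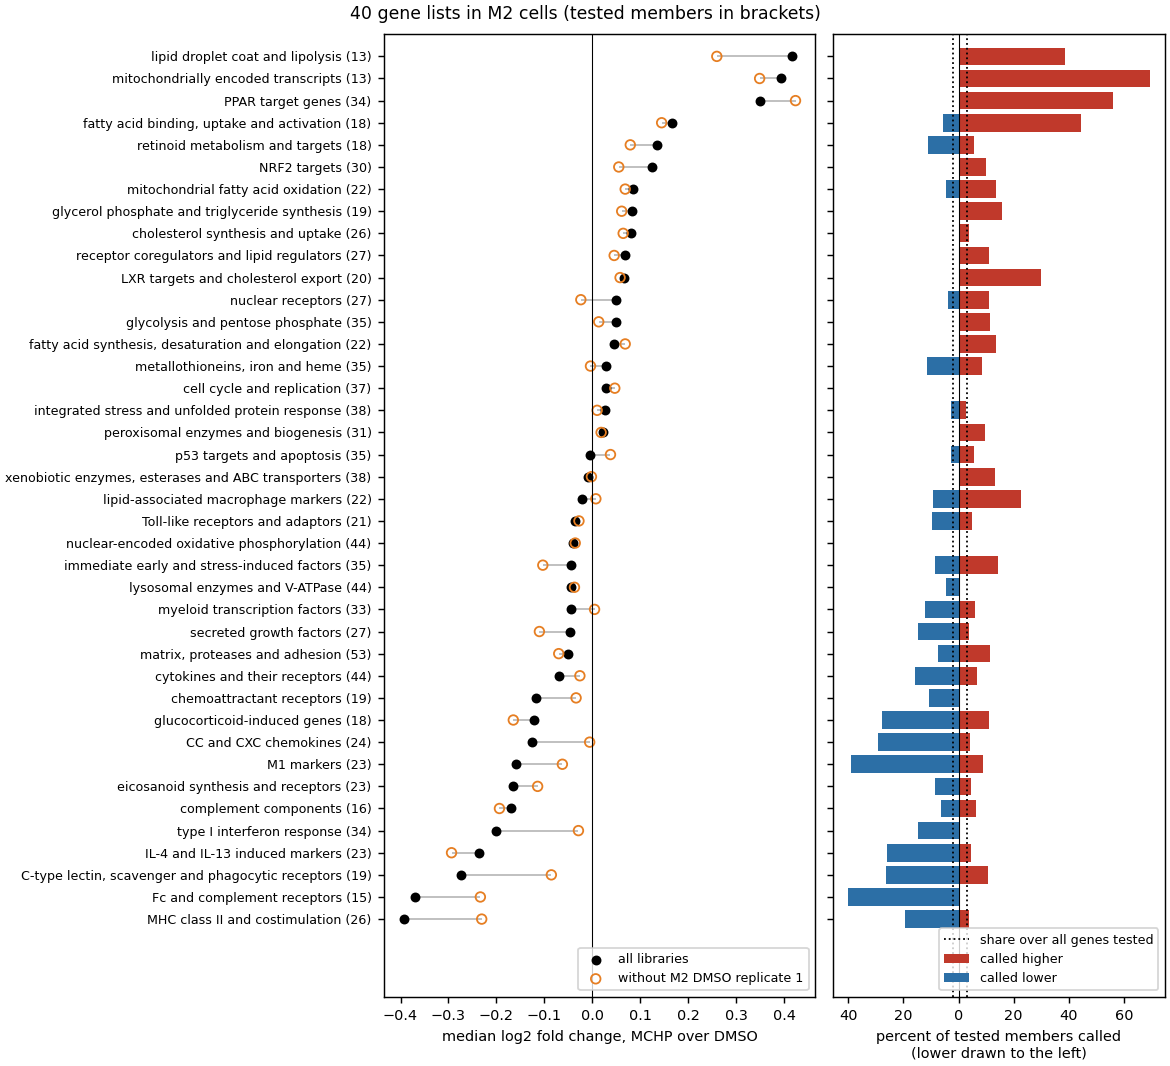
Left, the median log2 fold change of the tested members of each of 40 pathway lists, from all libraries (black) and without M2 DMSO replicate 1 (open orange). Right, the percent of tested members called higher (red) and lower (blue, drawn to the left), with dotted lines at the shares over all genes tested, 2.92% and 2.18%; PPAR targets, droplet genes and mitochondrially encoded transcripts lie at the top, and the median of the interferon list moves from -0.20 to -0.03.

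Mitochondrially encoded transcripts rose with MCHP in most cases. Of 13 tested mitochondrial messenger RNAs 9 rose and 0 fell, with a median of 0.39, and 0 were lower at an unadjusted p under 0.05, by DESeq2 or by limma-voom. When M2 DMSO replicate 1 was left out, all 13 rose, with a median of 0.35. MT-ND5, a subunit of complex I, was at 1263, 1228 and 1584 CPM with MCHP and 921, 1033 and 1010.0 CPM with DMSO, and MT-CYB, of complex III, was at 1859, 1908 and 2229.5 CPM with MCHP and 1285, 1557 and 1540.0 CPM with DMSO. M2 MCHP replicate 3 was the highest library for both, and the groups did not overlap. Their log2 fold changes were 0.46 (adjusted p = 0.0023) and 0.41 (adjusted p = 0.00013) for MT-ND5 and 0.45 (adjusted p = 0.0017) and 0.37 (adjusted p = 4.2e-05) for MT-CYB, and neither was called in the M2 libraries alone (adjusted p = 0.052 to 0.058). The summed level of the 13 was 32129, 32818 and 37640 CPM with MCHP and 29203, 27883 and 27615 CPM with DMSO. Of 44 nuclear genes of oxidative phosphorylation edgeR's test called 0 in either fit, with 0 higher and 4 lower at an unadjusted p under 0.05, 1 lower by DESeq2, 0 by limma-voom and 2 lower with GC offsets. The share of all counts on mitochondrial genes was 3.64% to 4.28% with MCHP and 3.10% to 3.23% with DMSO. The 13 transcripts make up most of this share, so it restates the rise. The cause of the rise was not tested.

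MT-ATP8, a small subunit of ATP synthase, was at 21.8, 25.5 and 29.6 CPM with MCHP and 51.7, 13.2 and 14.2 CPM with DMSO. Replicate 1 of DMSO was the highest of the 6 libraries and the other 2 solvent libraries were the lowest, so the log2 fold change went from -0.03 (adjusted p = 0.98) to 0.90 (adjusted p = 6.1e-05) when it was left out. Its exons share 22.2% of their bases with MT-ATP6, so the split of reads is uncertain. GPR89B, a Golgi anion channel, CHST13, a sulfotransferase, and PRICKLE1, a planar polarity gene, were the other large changes called only without that library, for -0.65 (adjusted p = 0.17) and -0.87 (adjusted p = 0.0054), -0.61 (adjusted p = 0.13) and -0.85 (adjusted p = 0.0012) and 0.62 (adjusted p = 0.055) and 0.72 (adjusted p = 0.014). PRICKLE1 shares 23.6% of its exonic bases with other gene models. GPR89B has a near-identical copy, GPR89A, so its count is uncertain too.

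The metallothionein genes MT2A, MT1X and MT1E, for small proteins that bind zinc and copper, fell. MT2A (ENSG00000125148, chromosome 16, 56608199 to 56609497, plus strand) was at 39.6, 46.5 and 34.4 CPM in M2 MCHP replicates 1 to 3 and 79.3, 55.4 and 67.2 CPM in M2 DMSO replicates 1 to 3. Each MCHP library lay below the solvent libraries, for -0.74 ± 0.12 (SE, adjusted p = 0.0014), and -0.60 ± 0.10 without M2 DMSO replicate 1 (adjusted p = 0.00015). MT1X was at 5.36, 4.12 and 4.59 CPM with MCHP and 7.88, 6.06 and 7.98 CPM with DMSO, for -0.64 (adjusted p = 0.011) and -0.59 (adjusted p = 0.01), and MT1E at 6.59, 5.92 and 6.30 CPM with MCHP and 15.9, 6.71 and 11.2 CPM with DMSO, for -0.84 (adjusted p = 0.045) and -0.52 (adjusted p = 0.081). Replicate 1 of DMSO was the highest library for MT1E, and MT1E was no longer called without it. The call of MT1X was lost when M2 MCHP replicate 2 was left out (-0.55, adjusted p = 0.055), and that of MT1E with M2 DMSO replicate 3 left out (-0.84, adjusted p = 0.072) or M2 MCHP replicate 1 (-0.88, adjusted p = 0.11), 2 (-0.80, adjusted p = 0.12) or 3 (-0.86, adjusted p = 0.15), and neither was called in the M2 libraries alone (adjusted p = 0.12 to 0.16). These genes lie together on chromosome 16, between 56608199 and 56684196, and are alike enough that reads may be split between them. Of 35 tested genes of metals and heme 4 fell (11.4%) and 3 rose (8.57%), in both fits. Over all genes tested 2.18% fell and 2.92% rose, and 5.06% and 6.4% without M2 DMSO replicate 1. ALAS1, the first enzyme of heme synthesis, was at 130.3, 141 and 129.9 CPM with MCHP and 199.7, 188 and 192 CPM with DMSO, with no overlap, for -0.53 ± 0.06 (adjusted p = 2.8e-05) and -0.51 ± 0.05 (adjusted p = 3.9e-08).

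Genes that handle foreign compounds rose in a few cases. Of 38 tested xenobiotic enzymes, esterases and ABC transporters 5 rose, against 7 higher and 3 lower without M2 DMSO replicate 1, with medians of -0.01 and 0.00. With all libraries 13.2% of the list rose, beside 2.92% over all genes tested. Without that library 6.4% of all genes were higher and 5.06% lower. ABCG2, an exporter of drugs and porphyrins, had 17, 28 and 30 counts with MCHP and 4, 1 and 6 with DMSO. Values with MCHP were above the solvent libraries at this low level, for 2.82 (adjusted p = 0.0039) and 2.92 (adjusted p = 0.0018). SLCO2B1, an organic anion transporter, was at 20.4, 21.997 and 22.2 CPM with MCHP and 6.30, 8.12 and 10.3 CPM with DMSO, for 1.38 ± 0.16 (adjusted p = 5.6e-05) and 1.22 ± 0.15 (adjusted p = 1.3e-06). The MCHP libraries were close to each other and above the solvent libraries. MGST1, a membrane glutathione transferase, was at 70.4, 76.4 and 63.3 CPM with MCHP and 60.2, 39.5 and 37.8 CPM with DMSO, with replicate 1 the highest solvent library, for 0.62 (adjusted p = 0.0074) and 0.86 (adjusted p = 6.9e-09) (not called in the M2 libraries alone, adjusted p = 0.095). CYP1A1, the classic target of the aryl hydrocarbon receptor, had 5, 7 and 4 counts with MCHP and 0, 1 and 7 with DMSO and was not tested, and CYP1B1, another of its targets, was at 160.4 to 166 CPM with MCHP and 153 to 159.6 CPM with DMSO, for 0.06 (adjusted p = 0.61) and 0.05 (adjusted p = 0.62). HMOX1, a marker of oxidative stress, was at 173 to 187 CPM with MCHP and 155 to 196 CPM with DMSO, for 0.03 (adjusted p = 0.89) and -0.06 (adjusted p = 0.53).

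Stress and growth programmes were read from 2 lists. Of 38 tested genes of the integrated stress and unfolded protein responses VLDLR rose and HERPUD1 fell, a share near the background of 5.11%. In that list 5 rose and 3 fell without M2 DMSO replicate 1, and 5 and 2 with GC offsets. Of 37 cell cycle genes edgeR's test called 0 (3 higher and 2 lower at an unadjusted p under 0.05, 1 lower by DESeq2, 0 by limma-voom, and 2 lower without M2 DMSO replicate 1). VLDLR, a lipoprotein receptor, was at 219.9, 217 and 218 CPM with MCHP and 177, 167 and 171 CPM with DMSO. The MCHP libraries lay above the solvent libraries, for 0.35 (adjusted p = 0.0012) and 0.37 (adjusted p = 5.4e-06). HERPUD1, which acts in the disposal of misfolded proteins, was at 166 to 197 CPM with MCHP and 235 to 244 CPM with DMSO, for -0.38 (adjusted p = 0.0013) and -0.36 (adjusted p = 3.5e-05). Among 18 tested glucocorticoid-induced genes 5 fell and ANXA1 and DUSP1 rose, against 6 lower and 3 higher without that library. The falls include MT2A and MT1X, given above with the metallothioneins. ANXA1, an anti-inflammatory annexin, was at 87.03, 94.95 and 82.2 CPM with MCHP and 65.02, 47.8 and 47.8 CPM with DMSO, with replicate 1 the highest solvent library, for 0.72 ± 0.10 (adjusted p = 0.00047) and 0.88 ± 0.07 (adjusted p = 2.5e-09). DUSP1, a phosphatase of MAP kinases, was at 248 to 258 CPM with MCHP and 148 to 196 CPM with DMSO, for 0.52 (adjusted p = 0.00089) and 0.41 (adjusted p = 4.3e-06), and SGK1, a kinase, at 402 to 456 CPM with MCHP and 525 to 624 CPM with DMSO, for -0.40 (adjusted p = 0.0017) and -0.31 (adjusted p = 3.8e-05).

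Of 35 tested immediate early and stress-induced factors 5 rose (14.3%) and 3 fell (8.57%), and without M2 DMSO replicate 1, 6 rose and 11 fell. Over all genes tested 2.92% rose and 2.18% fell, and 6.4% and 5.06% without that library. FOSL2, a member of the AP-1 family, was at 376, 350.4 and 389 CPM with MCHP and 242, 296 and 285 CPM with DMSO. All MCHP libraries lay above the solvent libraries, with replicate 1 the lowest, for 0.44 (adjusted p = 0.00088) and 0.36 (adjusted p = 6.8e-06). MAFF, a small MAF protein, was at 133 to 137 CPM with MCHP and 91.3 to 108 CPM with DMSO, for 0.41 (adjusted p = 0.00077) and 0.34 (adjusted p = 1.6e-05), and BTG2, which slows proliferation, was at 104 to 111 CPM with MCHP and 140.3 to 159 CPM with DMSO, for -0.47 (adjusted p = 0.00011) and -0.42 (adjusted p = 8.3e-07). Of 53 tested matrix, protease and adhesion genes 6 rose (11.3%) and 4 fell (7.55%), against 7 and 13 without M2 DMSO replicate 1. HAS3, a hyaluronan synthase, was at 10.9, 13.9 and 10.8 CPM with MCHP and 18.6, 23.7 and 26.1 CPM with DMSO. The MCHP libraries lay well below the solvent libraries, of which replicate 1 was the lowest, for -0.94 ± 0.15 (adjusted p = 0.00089) and -1.07 ± 0.13 (adjusted p = 2.5e-06). SPARC, a collagen-binding matrix protein, was at 92.5 to 109 CPM with MCHP and 137 to 145 CPM with DMSO, for -0.48 (adjusted p = 0.00042) and -0.48 (adjusted p = 3.6e-06). MMP19, a metalloproteinase, was at 385 to 435 CPM with MCHP and 311 to 326 CPM with DMSO, for 0.40 (adjusted p = 0.00051) and 0.39 (adjusted p = 4.7e-06), and GPC1, a cell-surface proteoglycan, was at 19.9 to 21.6 CPM with MCHP and 9.51 to 15.7 CPM with DMSO, for 0.75 (adjusted p = 0.0027) and 0.60 (adjusted p = 0.00076).

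Several of the largest changes lay outside these lists. SHANK3, a scaffold protein best known from synapses, was at 83.3, 78.1 and 82.2 CPM with MCHP and 22.4, 32.2 and 34.8 CPM with DMSO, for 1.44 ± 0.11 (adjusted p = 5e-07) and 1.28 ± 0.07 (adjusted p = 3.7e-13). The MCHP libraries lay well above the solvent libraries, of which replicate 1 was the lowest. AOC3, a vascular amine oxidase, was at 13.04, 13.3 and 12.9 CPM with MCHP and 5.73, 4.59 and 6.67 CPM with DMSO, for 1.204 ± 0.15 (adjusted p = 9.3e-05) and 1.21 ± 0.16 (adjusted p = 7.1e-06). VWA5A was at 10.01 to 11.96 CPM with MCHP and 3.21 to 5.18 CPM with DMSO, for 1.39 (adjusted p = 0.00014) and 1.24 (adjusted p = 2e-05), and MEGF9 at 8.13 to 9.59 CPM with MCHP and 3.47 to 4.30 CPM with DMSO, for 1.26 (adjusted p = 5.6e-05) and 1.21 (adjusted p = 1.2e-05). Neither pair of groups overlapped, which was a condition for being named among the largest changes. Among the falls, the lectin gene CLEC19A was at 3.62, 3.95 and 4.25 CPM with MCHP and 11.97, 6.94 and 7.35 CPM with DMSO, for -1.15 (adjusted p = 0.0058) and -0.86 (adjusted p = 0.0098). TOGARAM2 was at 7.05 to 8.53 CPM with MCHP and 13.9 to 17.1 CPM with DMSO, for -0.97 (adjusted p = 0.0017) and -1.04 (adjusted p = 6.9e-05), and the adhesion receptor gene ADGRD1 at 2.74 to 4.003 CPM with MCHP and 6.04 to 8.12 CPM with DMSO, for -0.95 (adjusted p = 0.0072) and -0.998 (adjusted p = 0.0017). SORL1, a sorting receptor, was at 3.94 to 5.34 CPM with MCHP and 8.09 to 9.83 CPM with DMSO, for -0.92 (adjusted p = 0.0044) and -0.83 (adjusted p = 0.0054). JAML, an adhesion molecule of leukocytes, was at 9.62 to 10.97 CPM with MCHP and 16.5 to 21.4 CPM with DMSO, for -0.85 (adjusted p = 0.00063) and -0.73 (adjusted p = 0.00025), and SERPINI1, a protease inhibitor, was at 21.2, 20.9 and 16.6 CPM with MCHP and 44.7, 30.3 and 28.7 CPM with DMSO, for -0.82 (adjusted p = 0.0024) and -0.59 (adjusted p = 0.00021). For JAML and SERPINI1, replicate 1 was the highest library.

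Markers of macrophages and of other cell types were read in the same way. Of 11 tested macrophage markers 3 fell (5 without M2 DMSO replicate 1), with summed levels of 2043 to 2129 CPM with MCHP and 2369 to 2403 CPM with DMSO, and of 6 monocyte markers 0 were called in either fit (1 lower at an unadjusted p under 0.05, 0 by DESeq2 and by limma-voom). Of 7 tested dendritic cell markers 2 fell (3 without that library), with summed levels of 188 to 198 and 272 to 283 CPM. Of 4 tested adipocyte markers 2 rose (3 without it), with summed levels of 105 to 132 and 22.6 to 27.9 CPM. FABP4 made up most of this sum with MCHP but not in M2 DMSO replicates 2 and 3. The defining adipocyte genes ADIPOQ (4 counts over the 6 libraries), PLIN1 (3) and LEP (0) were at or near 0. The T cell gene CD3E had 1 count and the B cell gene MS4A1 had 0. The part of shifts in cell type in the results above was not tested.

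The response was then set against that of M1 cells, with the difference, M2 minus M1, tested in the same fit. edgeR's test called 25 of 15252 genes (0.164%), 16 with a higher and 9 with a lower value in M2, and 385 (2.52%) without M2 DMSO replicate 1. PLIN2 had a log2 fold change of 0.60 in M1 and a difference of 1.02 (adjusted p = 0.00015) and 1.06 (adjusted p = 5.5e-08). TLR4 was at 0.43 in M1, with a difference of 0.99 (adjusted p = 0.00015) and 0.98 (adjusted p = 4.9e-07). Both thus rose by more in M2 than in M1, with that library and without it. SCARB1 was at 0.05 in M1, with a difference of 0.65 (adjusted p = 0.019) and 0.58 (adjusted p = 0.0005), and HADHA at 0.13, with a difference of 0.48 (adjusted p = 0.019) and 0.46 (adjusted p = 0.00024). CD209 was at 0.18 in M1, with a difference of -0.77 (adjusted p = 0.003) and -0.82 (adjusted p = 1.6e-06), and CD83 at -0.03, with a difference of -0.57 (adjusted p = 0.0083) and -0.54 (adjusted p = 5e-05). For CD36 the difference was 0.19 (adjusted p = 0.69) and 0.33 (adjusted p = 0.0085) and for NR1H3 0.35 (adjusted p = 0.25) and 0.36 (adjusted p = 0.037), so both were called only without M2 DMSO replicate 1. FABP4 had a difference of 1.24 (adjusted p = 0.85) and 1.76 (adjusted p = 0.34), which did not pass in either fit. Leaving out M2 MCHP replicate 1, 2 or 3 gave 6, 19 or 10 such genes, and leaving out M2 DMSO replicate 2 or 3 gave 19 or 36. Without M1 DMSO replicate 1, 2 or 3 it was 11, 6 or 11, and without M1 MCHP replicate 1, 2 or 3 it was 10, 10 or 13.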

How the data were processed

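The deposited table holds raw gene counts, which the authors made from poly-A selected, random-primed RNA libraries. The submitters' processing notes list, without roles, featureCounts 1.5.0-p3, StringTie 1.3.3b, HISAT2 2.0.5, fastp, DESeq2 1.20.0 and the build hg38; a strand setting is not given in the sources used here. Of 58907 genes, 26650 had no count and 172 were unannotated models (0.0665% of counts), which went through the same filter as the others. All 12 libraries (3 in each of 4 groups) entered 1 fit in edgeR 4.0.16 (R 4.3.3): filterByExpr, TMM scaling, quasi-likelihood test of MCHP against DMSO in M2 (8 residual degrees of freedom), Benjamini-Hochberg adjustment, and the same for M2 minus M1. SE is the log2 fold change over the square root of F. The filter kept 15252 genes and 99.82% to 99.88% of counts. The fit was tested on simulated counts that had no GC trend. That test cannot show how the fit handles a library such as M2 DMSO replicate 1.

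Alternatives were leaving out each library, the M2 libraries alone, DESeq2 1.42.0, limma-voom 3.58.1, RLE or library-size scaling, no filter, a replicate block, offsets for GC content (loess, span 0.5) and a minimum log2 fold change of 1. The M2 libraries alone and library-size scaling, each without M2 DMSO replicate 1, were added after seeing the data. The members and lists (40 pathway and 10 marker lists) were chosen with earlier results of these data known. Some genes are in several lists, so the counts of different lists are not separate results. The text names the 12 largest changes in each direction among protein-coding genes called with and without M2 DMSO replicate 1 that average at least 5 CPM and whose groups do not overlap, up to 4 called genes per direction from each list with 2 or more, a fixed set of receptors and markers, and the 5 largest changes called only with or only without that library; not all are described, and some results are not reported here. Gene positions are from GENCODE 29 and promoter sequences from RefSeq (GRCh38.p14).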

Additional observations from a re-analysis of the deposited data

Results flagged for a closer look

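For 13 of the genes named by the rule above, the response to MCHP differed between M2 and M1 cells in the test of the difference itself (edgeR's quasi-likelihood test, adjusted over all genes tested). Differences are on the log2 scale, M2 minus M1, with the log2 fold change in M1 beside them. All 13 were also called without M2 DMSO replicate 1. Over all genes tested, only 6 differences were called without M2 MCHP replicate 1 and 6 without M1 DMSO replicate 2. Some of the 13 thus lost their call when another library was left out.

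Of the 13 genes, 7 had the higher value in M2. The difference was 1.02 for PLIN2 (adjusted p = 0.00015), at 0.60 in M1, and 0.92 for FABP5 (adjusted p = 0.012), at 0.32 in M1. It was 0.48 for ACSL5 (adjusted p = 0.015), at 0.22 in M1, 0.48 for HADHA (adjusted p = 0.019), at 0.13, and 0.65 for SCARB1 (adjusted p = 0.019), at 0.05. TLR4 differed by 0.99 (adjusted p = 0.00015), at 0.43 in M1, and the amine oxidase AOC3 by 1.24 (adjusted p = 0.022), at -0.03.

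The other 6 had the lower value in M2. CCL1 differed by -0.78 (adjusted p = 0.031), at -0.50 in M1, and CCL8 by -1.01 (adjusted p = 0.022), at -0.03. CD209 differed by -0.77 (adjusted p = 0.003), at 0.18 in M1, and IFIT2 by -0.71 (adjusted p = 0.022), at 0.11. CD83 differed by -0.57 (adjusted p = 0.0083), at -0.03 in M1, and LGALS9 by -0.54 (adjusted p = 0.022), at 0.13. The differences without M2 DMSO replicate 1 were 1.06 for PLIN2, 0.93 for FABP5, 0.50 for ACSL5, 0.46 for HADHA, 0.58 for SCARB1, 0.98 for TLR4 and 1.25 for AOC3, and -0.61 for CCL1, -1.002 for CCL8, -0.82 for CD209, -0.63 for IFIT2, -0.54 for CD83 and -0.57 for LGALS9. With groups of 3, single libraries were not tested as outliers.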

How the results depend on the processing

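Of 779 genes called (446 higher, 333 lower), the count was 386 to 1747 (217 to 976 higher, 153 to 771 lower) when 1 M2 library was left out. It was 183 (104 and 79) in the M2 libraries alone and 1205 (592 and 613) in these without M2 DMSO replicate 1. It was 1594 (1002 and 592) with GC offsets, 1338 (821 and 517) with these and without that library, 1748 (739 and 1009) with library size alone and without it, and 3 (3 and 0, with 27 and 19 at an unadjusted p under 0.05) against the minimum fold. DESeq2 called 996 and limma-voom 792. The 25 differences between M2 and M1 became 6 to 385 with 1 library left out and 96 by DESeq2. The causes were not tested.

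Deviations from the group means correlated at -0.05, -0.14 and 0.03 between same-numbered MCHP and DMSO libraries. The GC trend of M2 DMSO replicate 1 enters the deviations of all DMSO libraries. These values therefore cannot show whether replicate numbers pair the libraries. The fit with the replicate block called 624 genes and 26 differences, and the block with GC offsets 1551 (979 and 572).

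No called gene among those named turned its direction, and 58 of 141 were called under each alternative that gave an adjusted p, other than the minimum fold (DESeq2 gave none for ABCG2, which is among the 58). Genes not called at first did turn. With M2 DMSO replicate 1 left out, in the M2 libraries alone without it, and with library size alone without it, RXRA went from 0.09 to -0.072, -0.085 and -0.10, TGM2 from 0.10 to -0.0044, -0.017 and -0.035, HMOX1 from 0.03 to -0.060, -0.072 and -0.090 (-0.015 with library size alone) and MT-ATP8 from -0.03 to 0.90, 0.89 and 0.87. MT-ATP8 was also at 0.07 without M2 MCHP replicate 1, 0.21 with the block, 0.029 with GC offsets, 0.20 with both, 0.84 with GC offsets and without M2 DMSO replicate 1, and 0.28 by limma-voom. PPARA went from 0.04 to -0.0061 without M2 MCHP replicate 1, -0.0075 with library size alone, -0.014 with that and without M2 DMSO replicate 1, and -8.5e-05 with GC offsets and without it. CD1D went from 0.17 to -0.029 without M2 MCHP replicate 2. ALDH1A2 went from 0.10 to -0.0061 and -0.15 without M2 MCHP replicates 1 and 2, and to -0.01 with library size alone and without M2 DMSO replicate 1. Over the fits that leave out 1 library the farthest values on the other side were 0.086 for PPARA, 0.18 for RXRA, 0.16 for TGM2, 0.11 for HMOX1, 0.26 for CD1D, 0.38 for ALDH1A2 and -0.35 for MT-ATP8. Depth limits low genes such as CCL8, CCL13 and ABCG2.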
